A study of Mus musculus with 12 samples.

Results

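The contractile apparatus of smooth muscle was followed through 10 genes of the 54232 in the count tables: the actins Acta2 and Actg2, the actin-binding proteins Tagln, Cnn1 and Cnn2, the tropomyosins Tpm1 and Tpm2, the myosin chains Myh11 and Myl9, and the myosin kinase Mylk. They were named gene by gene, and they were chosen by a rule that used the measured values, since Acta2 was picked for a level that was low with the inhibitor GNE-140 and low again with lactate. Their differences between the 3 conditions, lactate included, are therefore given as a description: no p of a single member is given, and the members that a fit across all genes called are counted beside the share of all genes called, with nothing read from the counts. A filter on low counts left 9 of the 10, of 17721 genes in all. Actg2 did not pass it.

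The libraries came from mouse eye organoids grown from Rax-GFP embryonic stem cells, which carry a heterozygous GFP knock-in at Rax, a gene of the early eye field. LDHi organoids received GNE-140, an inhibitor of lactate dehydrogenase, for 3 days. LDHi+lactate organoids also received lactate, by the labels from 12 hours before the inhibitor. Control organoids received neither, all carried the reporter and all were at day 7. Each condition has 4 libraries, whose total counts were 22174002 to 46881759 in LDHi, 29255114 to 42489921 in LDHi+lactate and 25209097 to 48271386 in control libraries. One stem cell line was used, and each library pools the cells of its organoids, so fewer cells of a type and less RNA per cell cannot be told apart. The labels call replicates 1 and 2 eye organoid (set A) and replicates 3 and 4 retina progenitors (set B). Libraries that share a number deviated together, with a correlation of 0.329 to 0.634 over 12 pairs, so the fits were also run with the replicate number as a block.

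Smooth muscle shortens when myosin heads pull on actin filaments after a calcium-activated kinase, the product of Mylk, phosphorylates the regulatory light chain, the product of Myl9. Most genes of the apparatus are transcribed through serum response factor (SRF), which binds a short sequence called the CArG box and works with myocardin in muscle or with MRTF in cells that build actin stress fibres. Several of these genes, Tpm1, Cnn2 and Myl9 among them, are also active in cells that are not muscle, whereas Myh11, Actg2 and Cnn1 are the textbook markers of differentiated smooth muscle.

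The markers of differentiated smooth muscle were the least abundant of the genes. Actg2 had 71 counts over the 12 libraries together, Myh11 287, Cnn1 427 and Tagln 474, against 141569 for Tpm1, 26622 for Cnn2, 18028 for Mylk, 9737 for Tpm2, 6393 for Acta2 and 5252 for Myl9. Myocd, which encodes myocardin, had 128 counts, and Kcnmb1 and Pln, a channel subunit and a calcium pump inhibitor of muscle, had 20 and 4. Myocd, Kcnmb1 and Pln were singled out after their values were seen. Other smooth muscle genes had more counts, among them Cald1 with 65837, Smtn with 11423, Des with 2922 and Lmod1 with 928. The genes followed here are called contractile genes, since the data do not show a population of differentiated smooth muscle cells.

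Because SRF sites are the best known shared feature of these genes, the 250 bases before the start site in the RefSeq promoter windows (GRCm38.p6) were searched for the CArG box, on both strands, which read the same for this palindromic pattern. Windows were at hand for 7 of the genes, and 3 of them held a box, with its A and T core intact or with 1 base of the core changed to G or C. An intact box was found in Cnn2 and in Myl9, and in 1.47% of all 32851 windows. A box with at most 1 changed base was found in 8.59%, and 2 or more such boxes, as in Acta2 and Myl9, in 0.67%. The 5 boxes are shown in capitals with 10 bases on either side, because they are the shared letters of genes whose levels are compared next. A match is not a bound site, and the libraries measured no binding.
Acta2, chr19:34255438-34255467, minus strand: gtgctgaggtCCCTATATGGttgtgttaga
Acta2, chr19:34255388-34255417, minus strand: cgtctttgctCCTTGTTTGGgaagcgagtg
Cnn2, chr10:79988534-79988563, plus strand: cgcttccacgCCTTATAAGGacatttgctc
Myl9, chr2:156775293-156775322, plus strand: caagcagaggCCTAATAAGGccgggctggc
Myl9, chr2:156775355-156775384, plus strand: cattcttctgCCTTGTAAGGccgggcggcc
The boxes began 84 and 34 bases before the RefSeq start in Acta2, 56 bases before it in Cnn2, and 161 and 99 bases before it in Myl9. GENCODE vM21 places the 5′ end of Acta2 217 bases further upstream, so both Acta2 boxes lie inside the gene as drawn there. No such box was in the windows of Tpm1, Tpm2, Cnn1 or Mylk, the last taken at a start 39740 bases inside the gene as GENCODE draws it.

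Acta2 (chr19:34241090-34255590, minus strand) encodes the alpha actin of vascular smooth muscle, which is also made in myofibroblasts. It had 1.94, 2.91, 16.2 and 2.23 CPM (counts per 1000000, scaled by the TMM method) in LDHi replicates 1 to 4, and 2.4, 4.64, 14 and 2.16 CPM in LDHi+lactate replicates 1 to 4, against 33.3, 32.6, 58 and 15 CPM in control replicates 1 to 4. Within each replicate number the treated library was below its control, but replicate 3 was high throughout, so that LDHi replicate 3 lay above control replicate 4. Every LDHi+lactate library lay below every control library. The means were 5.81 ± 6.91 CPM in LDHi, 5.8 ± 5.58 in LDHi+lactate, against 34.7 ± 17.7 in control (SD, n = 4 each). The fitted log2 fold change was −2.60 (SE 0.79) for LDHi against control and −2.59 (SE 0.79) for LDHi+lactate against control, and 0.02 (SE 0.76) for LDHi+lactate against LDHi. With the replicate block these became −3.05 (SE 0.31), −2.90 (SE 0.31) and 0.15 (SE 0.31). The value for LDHi+lactate against LDHi rested on replicate 3, since it was 1.29 (SE 0.64) without LDHi replicate 3 and −0.89 (SE 0.73) without LDHi+lactate replicate 3. Without LDHi replicate 3 the fold change for LDHi against control was −3.87 (SE 0.71), and it was −3.76 (SE 0.39) within set A and −2.02 (SE 1.16) within set B.

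Actg2 (chr6:83512905-83536265, minus strand), the gamma actin of visceral smooth muscle, had 4 to 8 counts in LDHi, 4 to 9 in LDHi+lactate and 1 to 10 in control libraries. Its mean level was 0.179 ± 0.0514 CPM in LDHi, 0.163 ± 0.0357 in LDHi+lactate, against 0.158 ± 0.0796 in control (SD, n = 4 each), and at this depth no difference was detectable. Per length, as TPM (transcripts per 1000000) over the union of exons, Acta2 stood at 10.4 ± 12.2 in LDHi, 10.4 ± 9.94 in LDHi+lactate, against 63.6 ± 32.5 in control libraries. The cytoplasmic actin Actb stood at 1220 ± 317 TPM in LDHi, 1300 ± 367 in LDHi+lactate, against 1280 ± 360 in control libraries. Of the 50-base windows of Acta2 transcripts, 0.326% also occur in transcripts of another gene, those of the cytoplasmic gamma actin Actg1 and its copies, so few Acta2 reads could come from a paralog.

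**Figure D1:**
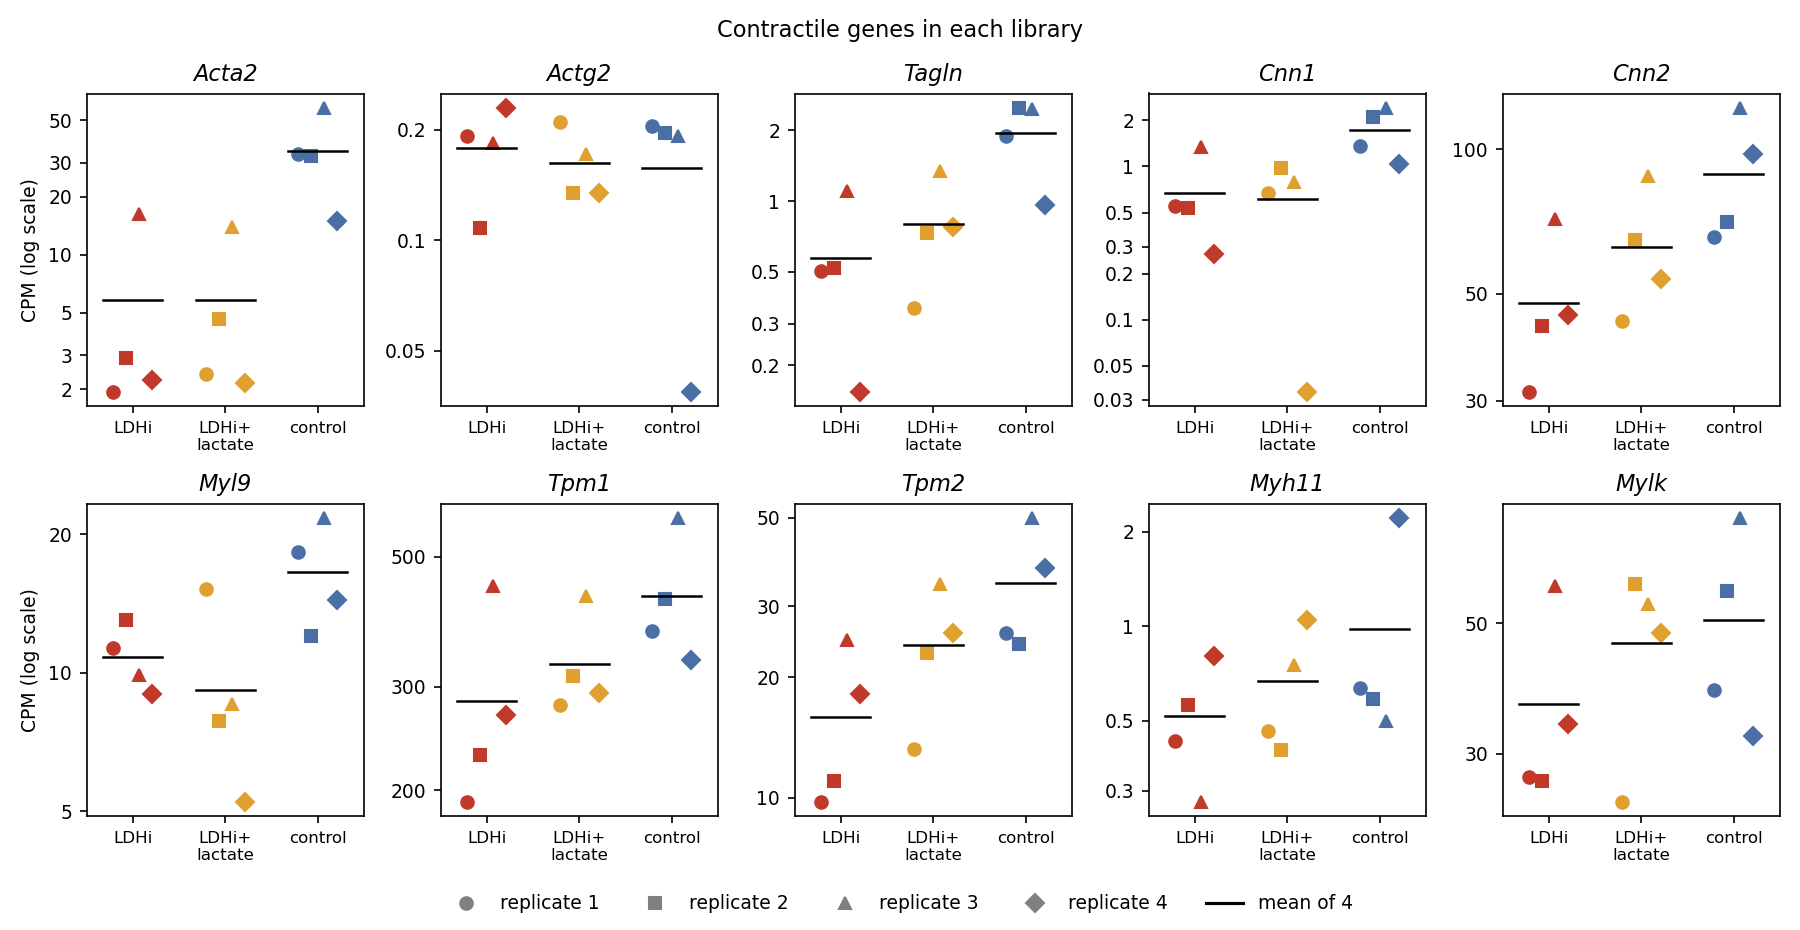
Level of each contractile gene in each library, in CPM on a log axis whose range differs by gene; symbols mark the replicate number and bars the mean of 4. For Acta2, 3 LDHi libraries lie at 1.94 to 2.91 CPM and replicate 3 at 16.2 CPM, against 15 to 58 CPM in control.

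Among the actin-binding proteins, calponins and transgelin stabilise actin filaments and damp myosin activity. Tagln (chr9:45929619-45936058, minus strand), an early smooth muscle marker also called SM22, had 0.504, 0.517, 1.1 and 0.154 CPM in LDHi and 0.35, 0.729, 1.34 and 0.777 CPM in LDHi+lactate libraries, against 1.9, 2.5, 2.46 and 0.967 CPM in control libraries. These are 4 to 24 counts per LDHi library, 15 to 39 per LDHi+lactate library and 25 to 115 per control library. It was lower than control in 4 of 4 replicate numbers with either treatment, though the groups overlapped. Its fitted log2 fold change was −1.80 (SE 0.53) for LDHi and −1.31 (SE 0.51) for LDHi+lactate, each against control. Of its 1983 transcript windows of 50 bases, 1098 also occur, on the opposite strand, in the antisense gene Gm48529, which had 202 counts against 474 for Tagln, and 59 in Pcsk7, which had 10383 counts. Whether HTSeq counted by strand is not stated, so reads from those shared windows cannot be told apart, while 41.7% of the windows are shared with no other gene.

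Cnn1 (chr9:22099216-22109630, plus strand), calponin 1, had 0.552, 0.538, 1.34 and 0.269 CPM in LDHi and 0.676, 0.972, 0.789 and 0.0338 CPM in LDHi+lactate libraries, against 1.37, 2.11, 2.42 and 1.04 CPM in control libraries. The lowest of these, LDHi+lactate replicate 4, is 1 read. Every LDHi+lactate library was below every control library, while LDHi replicate 3 reached into the control range. The log2 fold change was −1.39 (SE 0.64) for LDHi and −1.47 (SE 0.64) for LDHi+lactate, each against control.

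Cnn2 (chr10:79988584-79996062, plus strand), the calponin of smooth muscle and many other cells, was measured with 1180 to 3244 counts per library. It had 31.3, 42.8, 71.7 and 45.3 CPM in LDHi and 43.9, 64.8, 88.1 and 53.6 CPM in LDHi+lactate libraries, against 65.8, 70.6, 122 and 97.7 CPM in control libraries. The 3 conditions kept one order in every replicate number, LDHi lowest, LDHi+lactate between and control highest, and the differences within a number were −1.11 to −0.72 on the log2 scale for LDHi against control. The log2 fold change was −0.90 (SE 0.28) for LDHi and −0.51 (SE 0.28) for LDHi+lactate against control, and 0.39 (SE 0.28) for LDHi+lactate against LDHi. With the replicate block these became −0.92 (SE 0.099), −0.51 (SE 0.098) and 0.41 (SE 0.099).

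The tropomyosins lie along the actin filament and control where myosin can bind. Tpm2 (chr4:43514711-43523765, minus strand), beta tropomyosin, followed the order of Cnn2, with 9.75, 11, 24.7 and 18.1 CPM in LDHi and 13.2, 23, 34.1 and 25.7 CPM in LDHi+lactate libraries, against 25.8, 24.2, 49.9 and 37.5 CPM in control libraries. LDHi was lowest and control highest in 4 of 4 replicate numbers. The log2 fold change was −1.12 (SE 0.35) for LDHi and −0.52 (SE 0.35) for LDHi+lactate against control, and 0.60 (SE 0.35) for LDHi+lactate against LDHi. Tpm1 (chr9:67022590-67049406, minus strand), alpha tropomyosin, was the most abundant of the 10 and made up 62.5% to 73.4% of their summed CPM. It had 191, 230, 446 and 269 CPM in LDHi and 279, 313, 429 and 293 CPM in LDHi+lactate libraries, against 374, 423, 582 and 334 CPM in control libraries. Its log2 fold change was −0.59 (SE 0.25) for LDHi and −0.38 (SE 0.25) for LDHi+lactate, each against control. Neither tropomyosin shares a 50-base window with another gene. Their genes are spliced into muscle and non-muscle forms, which these counts per gene do not separate.

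Among the myosin genes, Myl9 (chr2:156775420-156781658, plus strand), the regulatory light chain, had 11.3, 13, 9.9 and 8.98 CPM in LDHi and 15.2, 7.86, 8.54 and 5.24 CPM in LDHi+lactate libraries, against 18.3, 12, 21.7 and 14.4 CPM in control libraries. It was the member with the smallest spread in LDHi, with a coefficient of variation of 16.4%, and in LDHi it was not highest in replicate 3. Its log2 fold change was −0.61 (SE 0.29) for LDHi and −0.85 (SE 0.29) for LDHi+lactate, each against control, and −0.23 (SE 0.29) for LDHi+lactate against LDHi. Myh11 (chr16:14194535-14291372, minus strand), the heavy chain that marks smooth muscle, had 0.432, 0.56, 0.276 and 0.806 CPM in LDHi and 0.466, 0.405, 0.755 and 1.05 CPM in LDHi+lactate libraries, against 0.635, 0.588, 0.499 and 2.21 CPM in control libraries. Its highest value in every condition was in replicate 4, where Acta2 was not high, and without control replicate 4 its log2 fold change for LDHi against control was −0.15, against −0.89 (SE 0.53) with all libraries.

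Mylk (chr16:34745210-35002420, plus strand), the myosin light chain kinase, had 27.4, 26.9, 58 and 33.7 CPM in LDHi and 24.8, 58.3, 53.9 and 48.1 CPM in LDHi+lactate libraries, against 38.5, 56.7, 75.6 and 32.2 CPM in control libraries. Its groups overlapped over most of their range, and its log2 fold change was −0.48 (SE 0.33) for LDHi and −0.13 (SE 0.33) for LDHi+lactate, each against control. Per length, in control libraries, the highest were Tpm1 at 267 ± 66.8 TPM, Cnn2 at 147 ± 46.4 and Acta2 at 63.6 ± 32.5 (mean ± SD, n = 4 each). Myl9 followed at 57.9 ± 15.3 TPM, Tpm2 at 48.1 ± 17.7 and Mylk at 18.2 ± 6.85, and then Tagln at 3.95 ± 1.35, Cnn1 at 2.55 ± 0.897, Myh11 at 0.536 ± 0.473 and Actg2 at 0.405 ± 0.199. The library ranges of neighbours in this order overlapped, except between Tpm1 and Cnn2, Tpm2 and Mylk, Mylk and Tagln, and Cnn1 and Myh11. In LDHi libraries Acta2 held rank 6 of the 10, against rank 3 in control libraries.

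With the replicate block the log2 fold changes of the other genes for LDHi against control were −1.89 (SE 0.39) for Tagln, −1.50 (SE 0.43) for Cnn1, −0.63 (SE 0.11) for Tpm1, −1.16 (SE 0.13) for Tpm2, −0.59 (SE 0.23) for Myl9, −0.71 (SE 0.36) for Myh11 and −0.47 (SE 0.21) for Mylk. For LDHi+lactate against control they were −1.34 (SE 0.38) for Tagln, −1.61 (SE 0.43) for Cnn1, −0.38 (SE 0.11) for Tpm1, −0.53 (SE 0.13) for Tpm2, −0.90 (SE 0.23) for Myl9, −0.39 (SE 0.36) for Myh11 and −0.12 (SE 0.21) for Mylk. The block narrowed the SE of all 9 genes in both comparisons.

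**Figure D2:**
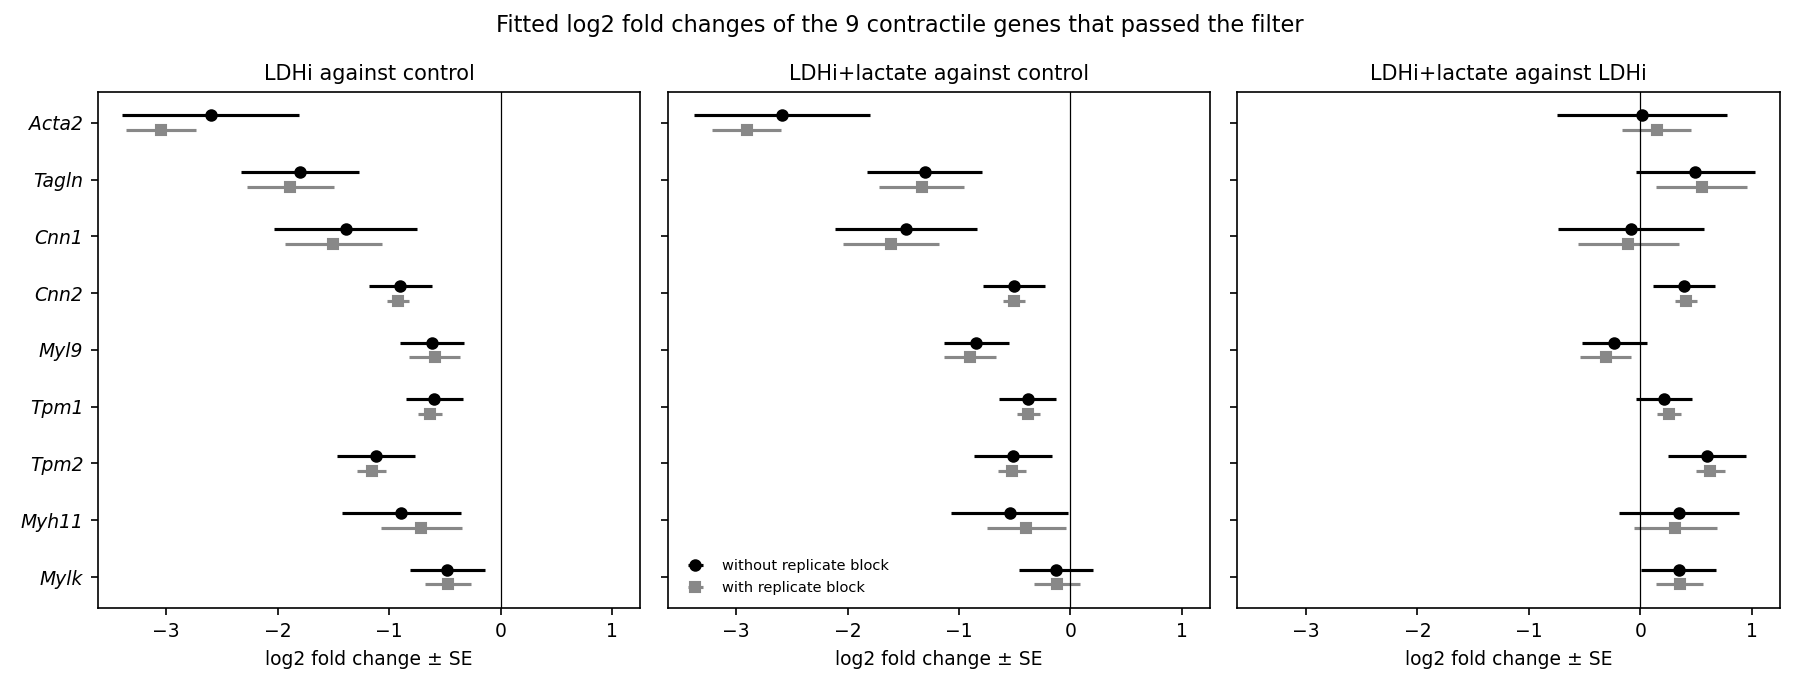
Fitted log2 fold change with its SE for the 9 genes that passed the filter, by comparison, from edgeR without the replicate block (circles) and with it (squares). All 9 lie below 0 for both comparisons with control, Acta2 lowest at −2.60 and −2.59 without the block, and values for LDHi+lactate against LDHi lie between −0.23 and 0.60 without the block and between −0.31 and 0.63 with it.

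Over the 9 genes the log2 fold change for LDHi against control was below 0 for all 9, with a median of −0.90, against 0.0086 over all 17721 genes tested. In the edgeR fit without the block 0 of 9 passed an adjusted p of 0.05, where 2.18% of all genes were lower and 0.909% higher. By unadjusted p, 5 of the 9 were under 0.05, as were 2916 of all 17721 genes, and DESeq2 without the block called 4, all lower (Acta2, Tagln, Cnn2 and Tpm2), where it called 7.04% of all genes in either direction. With the replicate block 6 passed, all lower in LDHi (Acta2, Tagln, Cnn1, Cnn2, Tpm1 and Tpm2), where 10.1% of all genes were lower and 9.85% higher. Of the 9, 7 were lower in LDHi in 4 of 4 replicate numbers, all but Myl9 and Mylk, as were 17.9% of all genes. For 0 of 9 did every LDHi library lie below every control library, as it did for 5.41% of all genes. For LDHi+lactate against control, which shares the control libraries, the median was −0.54 against a value near 0 over all genes. In the edgeR fit without the block 0 of 9 passed, as did 0% of all genes in either direction. By unadjusted p in that fit, 4 of the 9 and 1653 of all genes were under 0.05. DESeq2 without the block also called 0 of 9, where it called 1.28% of all genes. With the block 5 passed, all lower (Acta2, Cnn1, Cnn2, Myl9 and Tpm2), where 3.87% of all genes were lower and 4.18% higher. All genes but Myh11 and Mylk were lower in 4 of 4 replicate numbers (17% of all genes), and 2 did not overlap with control (2.11% of all genes). These comparisons chose the genes, so nothing is read from the counts.

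For LDHi+lactate against LDHi, the comparison that asks what lactate changed while the enzyme was inhibited and that the choice of Acta2 also used, 7 of the 9 log2 fold changes were above 0, with a median of 0.34 against −0.0051 over all genes. The edgeR fit called 0 of the 9, without the block or with it, and 0 had an unadjusted p under 0.05 without it. Over all genes 0% passed without the block, with 603 at an unadjusted p under 0.05, and with the block 0.0677% were lower and 0.57% higher. DESeq2 with the block called 2, Cnn2 and Tpm2, both higher with lactate, where it called 2.86% of all genes, and DESeq2 without it called 0, where it called 0.305% of all genes. Nothing is read from these counts either. Cnn2 and Tpm2 were the only members higher with lactate in 4 of 4 replicate numbers, by 0.244 to 0.596 and by 0.437 to 1.06 on the log2 scale. For Acta2 the difference was below 0 in 2 of 4 replicate numbers, between −0.206 and 0.665.

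The libraries of one condition differed by which replicate they belonged to. Replicate 3 held the highest value of 7 of the 9 genes in LDHi, of 5 in LDHi+lactate and of 7 in control libraries. The summed level of the 10 genes was 274 to 630 CPM in LDHi, 380 to 631 in LDHi+lactate and 535 to 915 in control libraries, and the highest of each was replicate 3. The rule did not use the contrast of the labelled sets, so it was tested, with the condition in the model. Only 2 replicate numbers stand in each set, and the fit takes the 12 libraries as independent although those of one number deviated together, so its p-values, for the members and for all genes alike, are too small. In set B, Tpm2 was higher than in set A, with 31.7 against 17.8 CPM on average and a log2 difference of 0.86 (SE 0.15, adjusted p = 0.00193 by edgeR). Cnn2 was also higher in set B, with 79.7 against 53.2 CPM and a log2 difference of 0.58 (SE 0.16, adjusted p = 0.0227 by edgeR). That call was lost without LDHi+lactate replicate 3, control replicate 1 or control replicate 3, where the difference was 0.51, 0.55 and 0.52. The other 7 did not pass, Acta2 with 17.9 CPM in set B against 13 CPM in set A and a log2 difference of 1.06 (SE 0.58, adjusted p = 0.203 by edgeR). Of all genes 13.7% were higher and 14.3% lower in set B, so 2 of 9 is to be read beside a background of that size. The labels do not say what else separates the sets.

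**Figure D3:**
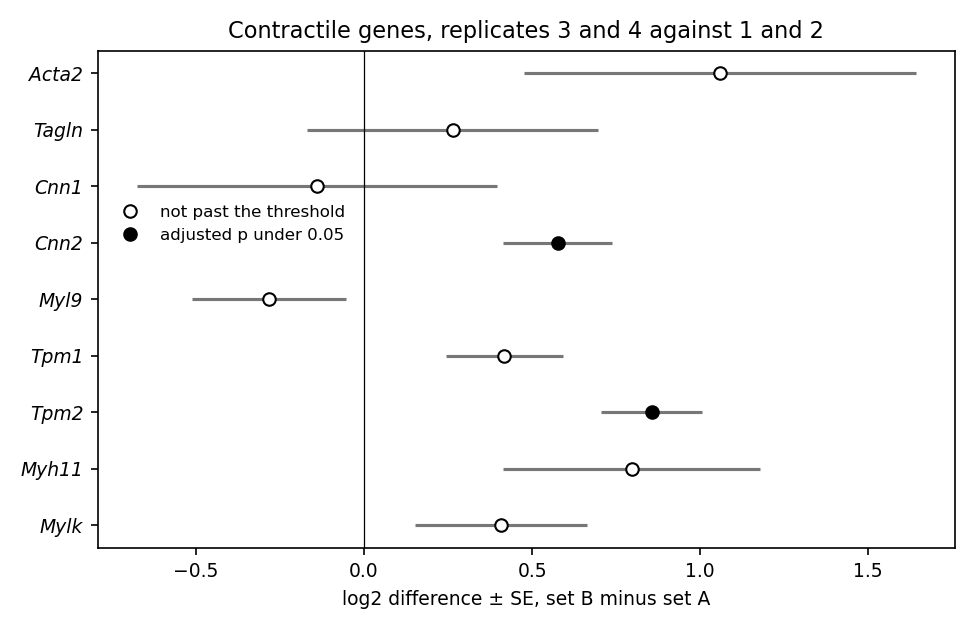
Log2 difference of each gene between set B (replicates 3 and 4) and set A (replicates 1 and 2), with its SE, condition held in the model; filled points passed an adjusted p of 0.05. Tpm2 at 0.86 and Cnn2 at 0.58 passed, and Acta2 at 1.06 had an SE of 0.58.

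The effect of treatment was also compared between the sets. For LDHi against control the difference between set B and set A was 1.76 on the log2 scale for Acta2 (SE 1.41, adjusted p = 0.89 by edgeR) and between −0.998 for Myh11 and 0.63 for Tagln among the other 8. For LDHi+lactate against LDHi it was −0.71 for Acta2 (SE 1.43). No member passed by edgeR or DESeq2, and none had an unadjusted p under 0.05. Over all genes 0% passed for LDHi against control, with 694 at an unadjusted p under 0.05. These fits rest on 2 libraries per condition and set, and their SEs are wide.

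Across the 12 libraries Acta2 varied most closely with Tagln (Pearson 0.892, Spearman 0.853), Tpm1 (0.883, 0.853), Cnn2 (0.84, 0.797) and Cnn1 (0.79, 0.93), less with Tpm2 (0.758, 0.685), Mylk (0.641, 0.58) and Myl9 (0.548, 0.545). For Myh11 the values were 0.00775 and −0.0559. These are descriptions over libraries that share conditions and replicate numbers. Without the 2 libraries farthest from the median of Acta2, control replicates 3 and 1, the Pearson value was 0.203 for Myl9 and 0.605 to 0.86 for the other 6 genes above 0.5. Outside the 10, among 14235 genes whose log2 CPM averaged 0 or more, the patterns most like that of Acta2 were those of Tm6sf1 (Pearson 0.953), Acot13 (0.927), Fbxo36 (0.918), Lta4h (0.913) and Vps16 (0.912). Their own spread between conditions was far smaller than that of Acta2, as for Lta4h with 104 CPM in LDHi, 111 in LDHi+lactate, against 124 in control libraries on average. Lta4h encodes a hydrolase of leukotriene synthesis and Vps16 a subunit of endosomal tethering complexes.

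Genes around the apparatus were listed for their roles, with earlier results of these data known, and tested in the same fit. Values are CPM as mean ± SD over 4 libraries. For LDHi against control, 2.18% of all genes were called lower and 0.909% higher, and with the replicate block 10.1% lower and 9.85% higher. Of 15 paralogs and partners of the contractile proteins, all tested, 0 passed for LDHi against control (4 lower and 1 higher with the replicate block) and the median log2 fold change was −0.01. Actc1, the cardiac actin, had 0.187 ± 0.0917 CPM in LDHi against 1.22 ± 0.856 CPM in control libraries (adjusted p = 0.0588 by edgeR, 0.0031 with the block), and Tpm4, a non-muscle tropomyosin, 173 ± 18.3 against 237 ± 32.7 CPM (adjusted p = 0.0812, 0.000412 with the block). Of 20 other smooth muscle genes, 16 were tested, the median log2 fold change was −0.29, and 2 fell (7 lower and 1 higher with the block). These were Itga8, an integrin chain of smooth muscle and mesenchyme, with 2.73 ± 0.46 CPM in LDHi against 7.08 ± 2.6 in control libraries (log2 fold change −1.36, SE 0.26, adjusted p = 0.0186), and Tgfb1i1, the focal adhesion protein Hic-5, with 7 ± 1.85 against 17.9 ± 7.42 CPM (−1.36, SE 0.29, adjusted p = 0.0298). Lmod1, which nucleates actin filaments in smooth muscle, had 1.32 ± 0.709 against 3.33 ± 1.59 CPM (adjusted p = 0.172, 0.00843 with the block), and Aoc3, an amine oxidase of vessel walls, 1.75 ± 0.745 against 0.796 ± 0.373 CPM (adjusted p = 0.22, 0.071 with the block).

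Of 16 genes for SRF, its cofactors and other regulators of smooth muscle, 14 were tested, 1 fell and 1 rose in LDHi (3 lower and 1 higher with the block). The median log2 fold change was −0.07. Srf itself had 80.3 ± 10.1 CPM in LDHi against 83.5 ± 7.52 in control libraries (adjusted p = 0.881 by edgeR). Its cofactors Mrtfa and Mrtfb had 47.1 ± 2.64 against 46.1 ± 6.13 and 57.8 ± 7.69 against 60.1 ± 9.24 CPM. Myocd, with 128 counts in all, had 0.144 ± 0.119 against 0.469 ± 0.344 CPM (adjusted p = 0.198 by edgeR). Mef2c, a MADS-box factor of the same class as SRF, fell, with 3.42 ± 0.408 CPM in LDHi against 9.07 ± 4.77 CPM in control libraries (log2 fold change −1.41, SE 0.30, adjusted p = 0.0285 by edgeR). Klf4, a factor that represses smooth muscle genes in other settings and a factor of pluripotent cells, rose, with 62.9 ± 5.05 against 35.1 ± 4.85 CPM (0.84, SE 0.12, adjusted p = 0.00907), and had 54.6 ± 6.72 CPM in LDHi+lactate libraries. Prrx1, a mesenchymal homeobox factor that works with SRF, had 12.3 ± 5.67 against 44.4 ± 28.6 CPM (adjusted p = 0.0648, 0.00143 with the block), and Elk3, an SRF partner, 7.65 ± 0.627 against 12.6 ± 3.91 CPM (adjusted p = 0.0842, 0.0299 with the block). Of 20 other SRF and MRTF target genes, all tested, 0 passed (7 lower and 1 higher with the block), with a median of −0.22. Fhl1, a LIM protein of muscle, had 129 ± 7.54 against 176 ± 34.4 CPM (adjusted p = 0.0865, 0.0109 with the block), and Filip1l 3.69 ± 0.786 against 6.67 ± 2.21 CPM (adjusted p = 0.114, 0.0401 with the block).

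Of 16 genes of TGF-beta signalling, which induces Acta2 in myofibroblasts, 15 were tested, 2 fell and 1 rose (4 lower and 1 higher with the block). Tgfb2, a ligand, had 6.96 ± 1.34 CPM in LDHi and 10.6 ± 3.01 in LDHi+lactate libraries, against 24.1 ± 12 in control libraries (LDHi against control −1.79, SE 0.35, adjusted p = 0.0211). Tgfbi, an induced matrix protein, fell too, with 3.08 ± 0.939 against 13.6 ± 10.4 CPM (−2.14, SE 0.47, adjusted p = 0.0308). Eng, a coreceptor best known in endothelium, rose, with 16 ± 5.42 against 6.86 ± 1.13 CPM (1.22, SE 0.24, adjusted p = 0.0217). Tgfb3 had 5.75 ± 1.15 against 11.3 ± 4.46 CPM (adjusted p = 0.137, 0.00297 with the block) and Ltbp1 43.7 ± 4.66 against 66.6 ± 21.3 CPM (adjusted p = 0.141, 0.0423 with the block).

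Of 16 genes of the YAP and TEAD pathway, a pathway that responds to tension in the actin cytoskeleton, all were tested and 0 passed (6 lower with the block). Tead2 had 343 ± 17.2 CPM in LDHi against 433 ± 42.1 in control libraries (adjusted p = 0.0583 by edgeR, 0.00159 with the block) and Tead3 33.1 ± 3.94 against 45.2 ± 8.49 CPM (adjusted p = 0.113, 0.00754 with the block). Of 22 striated muscle markers 14 were tested and 0 passed (1 higher with the block), and their summed level was 27.2 to 43 CPM in LDHi, 26.5 to 48.3 in LDHi+lactate and 23.6 to 30.3 in control libraries. Ttn, the giant spring protein of the sarcomere, had 7.53 ± 5.83 CPM in LDHi against 1.69 ± 0.748 in control libraries (adjusted p = 0.143, 0.0146 with the block) and Tnni1 0.705 ± 0.373 against 0.393 ± 0.125 CPM (adjusted p = 0.483, 0.335 with the block). In the comparison of LDHi+lactate with LDHi, 0 genes of these 7 lists passed, with or without the block.

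**Figure D4:**
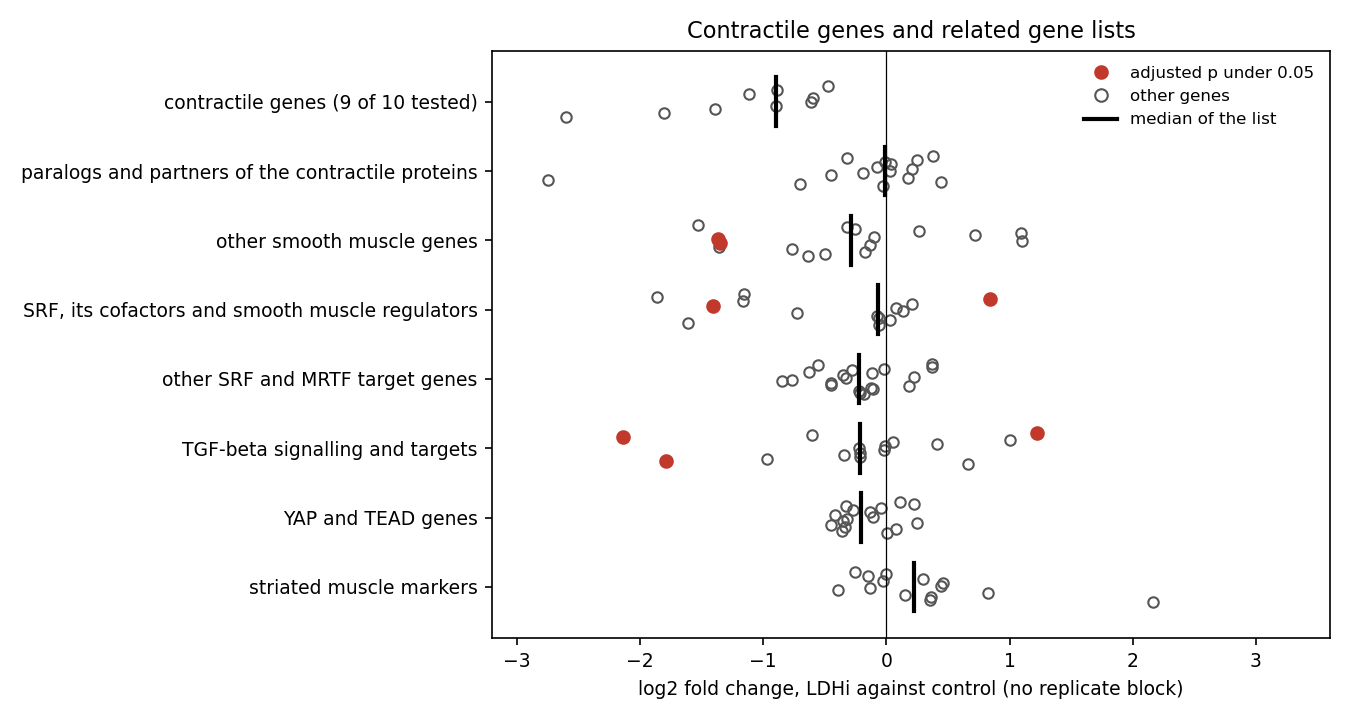
Log2 fold change for LDHi against control, without the replicate block, of the 9 contractile genes and of each tested gene in 7 related lists; filled points passed an adjusted p of 0.05 and bars mark each median. The contractile genes have a median of −0.90, the SRF and MRTF target genes −0.22 and the paralogs −0.01.

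Markers of other cell types were counted in the same fit, beside the same shares of all genes. Those named were chosen after their values were seen. Of 14 mesenchyme markers, all tested, 8 fell in LDHi against control, with a median log2 fold change of −3.22, among them the transcription factor Twist1 with 3.47 ± 1.4 CPM in LDHi against 41.1 ± 37.7 CPM in control libraries (adjusted p = 0.0254), and their summed level was 115 to 179 CPM in LDHi, 178 to 229 in LDHi+lactate and 202 to 1050 in control libraries. Most of the sum in LDHi libraries was Pdgfra, which did not pass, with 105 ± 28.7 CPM in LDHi against 96.4 ± 14.9 CPM in control libraries. The sum in LDHi libraries therefore does not stand for the markers that fell. The order of single libraries by the mesenchyme sum was not that of Acta2. Among LDHi libraries that order cannot show how the markers that fell vary with Acta2, since most of the sum was Pdgfra. LDHi replicate 3, highest of its group in Acta2 at 16.2 CPM, had the lowest mesenchyme sum of all at 115 CPM, and control replicate 4, lowest of its group in Acta2 at 15 CPM, had the highest at 1050 CPM. Without control replicate 4, 3 of the 14 passed, where 2.3% of all genes did, and with the replicate block 12 passed. Myh11 was the contractile gene that peaked in control replicate 4. Of 9 pericyte and mural markers 7 were tested and 0 passed without the block (2 lower with it), and their sum was 253 to 346 CPM in LDHi, 239 to 343 in LDHi+lactate and 237 to 387 in control libraries. Most of it was Notch3, with 261 ± 38.3 CPM in LDHi against 252 ± 61.4 CPM in control libraries. Pdgfrb, the receptor that recruits pericytes, had 6.6 ± 2.04 against 19.3 ± 12.6 CPM (adjusted p = 0.0597 by edgeR, 0.00139 with the block), and Mcam, an adhesion molecule of vessel walls, 18.6 ± 4.32 against 27.2 ± 2.46 CPM (adjusted p = 0.126, 0.00605 with the block). Kcnj8, a defining pericyte channel, had 9 counts in all. Of 8 endothelial markers 7 were tested, 1 rose (Pecam1, log2 fold change 1.42, adjusted p = 0.0259 by edgeR) and 1 fell (Kdr, −1.27, adjusted p = 0.0444), with 1 lower and 2 higher with the block, and their sum was 65 to 129 CPM in LDHi, 74.7 to 116 in LDHi+lactate and 47.5 to 73 in control libraries. Early mesoderm markers summed to 60.8 to 104 CPM in LDHi, 57.2 to 122 in LDHi+lactate and 36.6 to 111 in control libraries, with 0 of 8 past the test without the block (2 lower and 1 higher with it). Simple epithelium markers summed to 389 to 613 CPM in LDHi, 407 to 711 in LDHi+lactate and 365 to 493 in control libraries, with 0 of 7 past the test without the block (4 higher with it). The eye field markers summed to 1200 to 1350 CPM in LDHi, 1230 to 1550 in LDHi+lactate and 1350 to 1890 in control libraries. Of these 9, 4 were lower and 1 higher in LDHi (8 lower and 1 higher with the block). The 1 higher was Sox2, a pan-neural marker in the paper and a large part of the sum, with 610 ± 49.9 against 401 ± 68.6 CPM. In LDHi+lactate libraries Sox2 had 489 ± 57.1 CPM. It moved opposite to the markers that fell, so the sum does not stand for them. Among the lower were Rax with 6.6 ± 4.38 against 26.6 ± 10.4 CPM and Six6 with 9.48 ± 7.03 against 98.3 ± 53.8 CPM. In LDHi+lactate libraries Rax had 24.1 ± 7.04 CPM and Six6 76.6 ± 29.7 CPM. For LDHi+lactate against LDHi, 0 of the 9 passed without the block. With it 4 were higher and 1 lower, where 0.57% of all genes were higher and 0.0677% lower. The part of these cell types in the levels of the contractile genes was not tested.

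**Figure D5:**
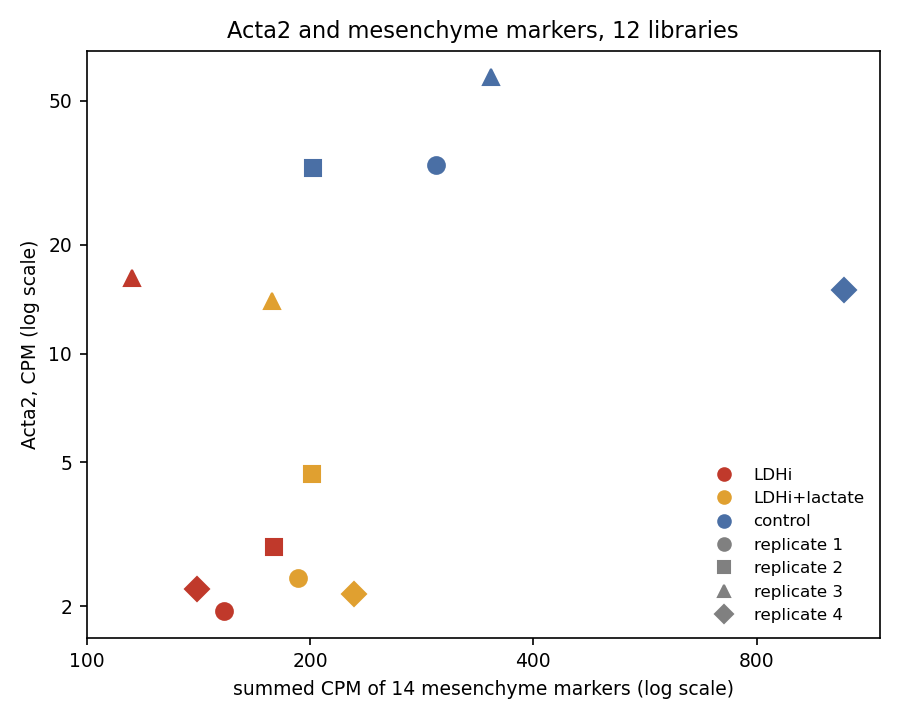
Acta2 in CPM against the summed CPM of 14 mesenchyme markers, both on log axes, for the 12 libraries; colour marks the condition and shape the replicate number. Control replicate 4 lies far to the right at 1050 CPM with Acta2 at 15 CPM, and LDHi replicate 3 farthest to the left at 115 CPM with Acta2 at 16.2 CPM. In LDHi libraries most of the sum was Pdgfra, so their positions do not show how the markers that fell vary with Acta2.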

How the data were processed

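RNA was sequenced from 12 organoid cultures. The authors deposited counts per Ensembl gene, raw and not normalised. Per the labels these came from HTSeq 0.6.1p1 after cutadapt 1.13 and alignment by STAR (mm10). No source used here gives the STAR version, the annotation release or the strand setting. Counts were fitted with edgeR 4.0.16 (quasi-likelihood test, TMM, filterByExpr, R 4.3.3; Benjamini-Hochberg over 17721 genes, called at adjusted p under 0.05), condition as the term and all 12 libraries sharing the spread; DESeq2 1.42.0 was an alternative. The SE is the log2 fold change over the square root of F. TPM, overlaps and shared 50-base windows used GENCODE vM21 (GRCm38), promoters RefSeq GRCm38.p6. The study's methods give 4 independent experiments. Libraries with the same number correlated at 0.329 to 0.634 in their deviations from condition means, over 12 pairs, against −0.22 to 0.197 over 12 pairs of other numbers in the same set; the pairing comes from the data, not the labels. Members and lists were chosen with earlier results of these data known. Beside all members, each list of genes around the apparatus names up to 4 called genes and 2 with the next smallest adjusted p. The rule did not cover the cell type markers. Srf, Mrtfa, Mrtfb and Myocd were named outside it, after their values were seen. The scripts were tested on simulated data. One further list is not reported here.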

Additional observations from a re-analysis of the deposited data

Results flagged for a closer look

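In groups of 4 libraries, 27 groups of CPM values were screened for a highest or lowest library set apart from the rest, and chance sets apart about 1 in 20. Acta2 stood apart in LDHi replicate 3, at 16.2 CPM with the next highest LDHi library at 2.91 CPM. Myh11 stood apart in control replicate 4, at 2.21 CPM with the next highest control library at 0.635 CPM. The cause of neither was tested. The first library was also the highest of its condition for 7 of the 9 genes tested, and the second had the highest summed level of mesenchyme markers.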

How the results depend on the processing

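For LDHi against control, 0 contractile genes passed. With the replicate block 6 did (19.9% of all genes), and with DESeq2 4 (7.04% of all genes). With DESeq2 and the replicate block 7 did (22.4% of all genes), and with the set as a term 3 (7.83% of all genes). Leaving out single libraries gave 0 to 1, the 1 being Acta2 without LDHi replicate 3, where 1.04% of all genes passed. For LDHi+lactate against control the count of 0 became 5 with the replicate block (8.05% of all genes). With DESeq2 and the block it became 7 (15.3% of all genes). For LDHi+lactate against LDHi the count of 0 became 2 with DESeq2 and the block (2.86% of all genes). For set B against set A, 2 became 5 without a filter on low counts. It became 0 when a log2 difference of at least 1 was also required, and 1 to 2 on leaving out single libraries. The share of all genes is not given for these settings of the set contrast, so nothing is read from its changes. No count changed for treatment by set. In the lists (LDHi against control), DESeq2 called 2 paralogs, 4 regulators, 2 SRF targets and 1 YAP gene, against 0, 2, 0 and 0, and the replicate block called 5, 4, 8 and 6, and 8 other smooth muscle, 5 TGF-beta and 1 striated gene, against 2, 3 and 0. Without control replicate 4, a setting chosen after seeing the data, 1 paralog, 1 SRF target and 1 YAP gene passed. In that setting 2.3% of all genes passed. The cause of these shifts was not tested, but the block removes differences shared by a replicate number. For both comparisons with control, each tested gene kept its sign under the 22 or 23 alternatives run, except Myh11 and Mylk for LDHi+lactate; for LDHi+lactate against LDHi, Acta2, Cnn1 and Myh11 changed sign under some. Tpm1 stood at 625 TPM in control, against 267, when lengths came from the longest coding transcript. Of the 5 genes most like Acta2, 2 were again among the first 5 by Spearman and 1 by deviations from replicate means. Actg2, Tagln, Cnn1 and Myh11 rest on few reads.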
